A study of Mus musculus with 12 samples.

Results

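Early thymic progenitors of mice with mutations in 3 genes, Ezh2, Runx1 and Flt3, were compared with control progenitors of the same strain, in 4 libraries a side out of 12 in the series. The libraries were chosen by the genotype in their labels and by no measured value. All mice were C57BL/6, and each library held the messenger RNA of 100 sorted cells. Control cells had the genotype Ezh2 fl/fl Runx1 fl/fl and no Cre recombinase, so both genes carried loxP-flanked alleles that were left intact. Triple mutant cells had the same Ezh2 fl/fl and Runx1 fl/fl alleles together with Rag1Cre+, and in addition Flt3 ITD/+. In these cells a recombinase driven by Rag1, a gene of lymphoid progenitors, acts on the floxed alleles, and 1 Flt3 allele carries an internal tandem duplication. The remaining 4 libraries, here called double mutant, had the floxed alleles and Rag1Cre+ without the Flt3 duplication, and they are set beside the triple mutant where that helps to read it. Control and triple mutant differ in the recombinase, in the deletions and in the Flt3 allele at once, and these cannot be told apart in this comparison. The labels name no age or sex, do not say whether replicates came from separate animals, and do not describe the sorted cells as leukaemic. The p-values therefore measure the spread between these libraries, which may be technical.

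Early thymic progenitors are the first cells of the T lineage in the thymus, and they still share many genes with blood stem cells and myeloid cells. Notch signals switch on factors such as Tcf7 in them, and the cells then lose their other options step by step. Ezh2 is the methyltransferase of Polycomb repressive complex 2, which keeps genes silent through histone methylation. Runx1 is a transcription factor that both activates and represses genes during blood cell development. Flt3 is a receptor tyrosine kinase of lymphoid and myeloid progenitors, and its internal tandem duplication keeps it signalling without ligand, through STAT5 and the ERK kinases among others. Lesions of these kinds are found in human early thymic progenitor leukaemia, an immature form of T-cell leukaemia.

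Expression was read as RPKM, reads scaled to transcript length and library depth, and 10690 genes were tested, those that reached 1 RPKM in 4 or more of the 12 libraries. The reads recovered from these values numbered 20046313 to 27993125 in the control libraries and 17164128 to 33985972 in the triple mutant libraries. The mean correlation between libraries was 0.853 within the triple mutant, 0.856 within control and 0.819 between them, over the log2(RPKM + 1) values of the tested genes. Triple mutant 1 stood apart in its RPKM sum, 1071041 against 515638 to 666626 in the other 7 libraries. Scaling every library to 1 sum therefore moved the all-gene median of log2 fold change from 0.00 to −0.21. Of 16 tested genes that mark early thymic progenitors, 2 fell, Tcf7 and Ccr9, and none rose. Their median log2 fold change was −0.82, and −1.07 with equal sums. The marker genes together summed to 1021 to 1183 RPKM in control and 687 to 851 RPKM in the triple mutant. Kit, the receptor by which these cells are sorted, had 58.1 ± 10.3 RPKM in control and 49.8 ± 19.3 in the triple mutant (SD, n = 4), with limma adjusted p = 0.794. Cd44 had 67.4 ± 22.1 and 38.4 ± 18 RPKM, and Cd34 345 ± 115 and 198 ± 65.9 RPKM, neither passing. Kit, Cd44 and Cd34 were thus present in both groups, while Tcf7 and Ccr9 were close to 0 in the triple mutant. In bulk samples such as these, fewer cells of a type and less RNA per cell cannot be told apart.

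The triple mutant differed from control in 160 of 10690 genes, 1.5% of those tested, with 106 up, 0.992%, and 54 down, 0.505%. The rising genes had a median log2 fold change of 2.95 and the falling genes of −2.88, on the scale of log2(RPKM + 1), which understates the change of low genes. Limma, a linear model with a spread shared across genes, was the test, with Benjamini-Hochberg adjustment at 0.05, and 1435 genes had an unadjusted p under 0.05. Among the 106 genes that rose, 41 or 38.7% had a control mean below 1 RPKM, against 6.19% of all tested genes. Among the 54 that fell, 19 or 35.2% had a triple mutant mean below 1 RPKM, against 4.38% of all tested genes. Such genes passed the filter on low values through the groups in which they were high, so these shares are descriptions. The groups did not overlap for 98 of 106 genes up and for 54 of 54 down, against 7.67% of all tested genes. These shares of all tested genes, 0.992% up, 0.505% down and 7.67% without overlap, apply beside each count of list members below. With equal RPKM sums the test called 168 genes, 84 up and 84 down.

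How many genes passed depended on the test. Voom, which weights the recovered reads by their precision, called 27 genes, 13 up and 14 down, of which 26 were among the 160. In the fits without 1 library, 70 of the 160 genes kept their call in all 8, 52 of them up and 18 down. Without control 1 or control 4 the test called 102 or 94 genes, without triple mutant 1 or triple mutant 2 it called 101 or 99, and without triple mutant 4 it called 187. Without triple mutant 1 and control 1 together it called 83, of which 63 were among the 160. Across voom, these 8 fits and the fit without both libraries, 18 genes passed throughout, 11 up and 7 down. The rising ones included Il4, Ifitm1, Ifitm3, H2-D1, H2-K1, Serpina3g, Capg, Chchd7, Dtnbp1 and Nt5c3, and the falling ones Dntt, Lck, Cox6a2, Xrcc6, Nup107 and St8sia1. Of the genes named below, voom also called Azin1, C2, Dusp6, Ebi3, Lat2 and Zfyve28, and every other called gene named below lost its call there. Without triple mutant 1 and control 1 together, calls also ended for Ccr9, Smim5, Akr1b7, Apol9a, Gna14, H2-Q5, C2 and Ifi27l2a, at adjusted p of 0.0506 to 0.0750, and for the genes below that lost their call in any fit without 1 library, apart from Cd7, Lat2 and Rnase10.

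**Figure D1:**
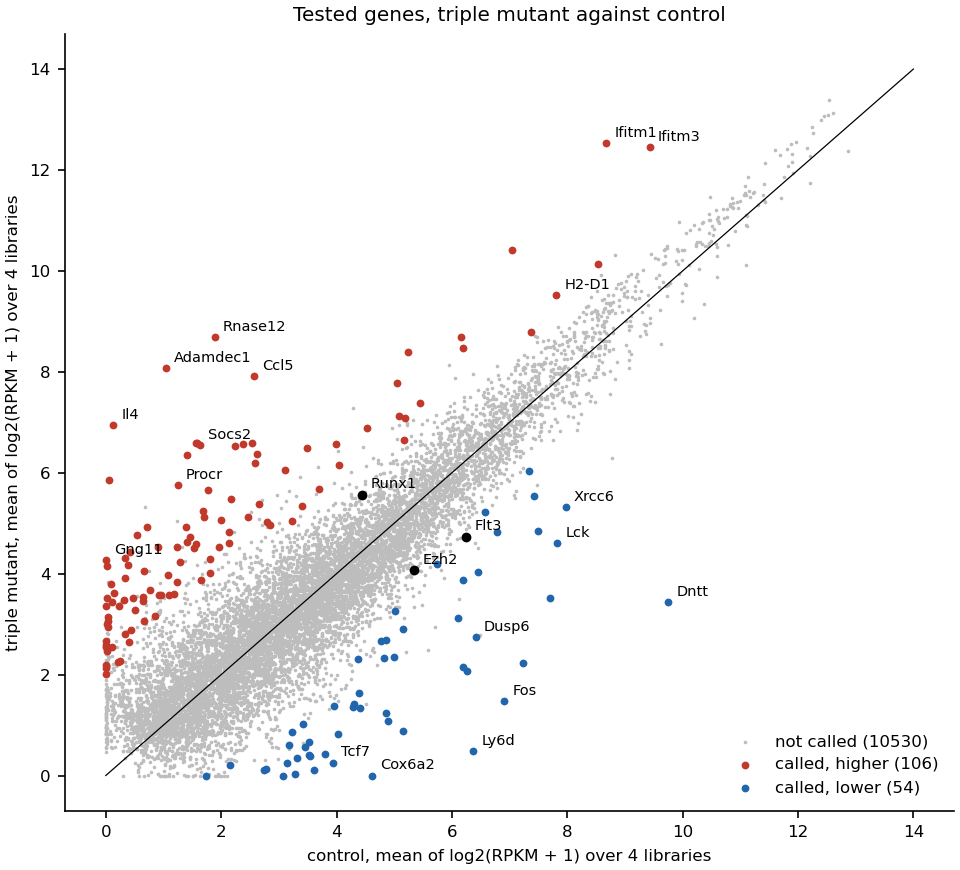
Mean log2(RPKM + 1) over 4 control libraries (horizontal axis) against the mean over 4 triple mutant libraries (vertical axis) for 10690 tested genes, with the line of equality. The 106 genes called up are red, the 54 called down are blue, and the black points are Ezh2, Runx1 and Flt3, which were not called. Many red points sit at the left edge, where the control mean is near 0.

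The mutated genes themselves did not pass over all genes. Ezh2 (chromosome 6, 47530139 to 47595341, minus strand, GRCm38) had 45.7, 32.8, 43.3 and 37.4 RPKM in controls 1 to 4 and 14.2, 12, 24.6 and 14.9 RPKM in triple mutants 1 to 4. All 4 triple mutant libraries lay below all 4 controls. The means were 39.8 ± 5.83 and 16.4 ± 5.59 RPKM (SD, n = 4), and the two-sided exact permutation test gave 0.0286, which is as low as 4 libraries against 4 can reach, beside a limma adjusted p of 0.0949. Runx1 (chromosome 16, 92601466 to 92826149, minus strand) went the other way. It had 25, 18.3, 16.3 and 25.3 RPKM in controls and 32.6, 58.8, 43.7 and 54.8 RPKM in triple mutants, with no overlap, an exact permutation p of 0.0286 and a limma adjusted p of 0.124. Values over a whole gene include reads from outside a deleted exon, so the Ezh2 and Runx1 values check neither the deletions nor the labels. Flt3 (chromosome 5, 147330741 to 147400489, minus strand) had 88, 53.3, 62 and 110 RPKM in controls and 29.4, 25.7, 7.73 and 70.1 RPKM in triple mutants. The groups overlapped through triple mutant 4, the exact permutation p was 0.0857 and the limma adjusted p 0.198. Rag1, whose promoter drives the recombinase, had 0.915 ± 0.771 RPKM in control and 1.62 ± 1.98 RPKM in the triple mutant (SD, n = 4), with an exact permutation p of 0.657. Of 11 tested genes of Polycomb repressive complex 2 none passed, and their median log2 fold change was −0.11, −0.37 with equal sums and 0.05 without triple mutant 1 and control 1, so its sign was not stable. Of 8 tested genes of the RUNX family and its partners none passed.

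Promoter sequences are shown first for 5 called genes whose changes are described next, because these windows hold the letters that STAT or RUNX proteins are known to read. The windows come from RefSeq on GRCm38.p6 and run from 250 bases before to 50 bases after a start site, written 5′ to 3′ on the strand of the gene. Capitals mark matches to TTCNNNGAA, a letter pattern of STAT sites that reads the same on both strands, and to TGTGGT or its reverse complement ACCACA, a pattern of RUNX sites. The windows are Il4 (chr11:53617289-53617588, minus strand), Ifitm3 (chr7:141010695-141010994, minus strand), Serpina3f (chr12:104214294-104214593, plus strand), Serpina3g (chr12:104235897-104236196, plus strand) and Lck (chr4:129573592-129573891, minus strand).
Il4: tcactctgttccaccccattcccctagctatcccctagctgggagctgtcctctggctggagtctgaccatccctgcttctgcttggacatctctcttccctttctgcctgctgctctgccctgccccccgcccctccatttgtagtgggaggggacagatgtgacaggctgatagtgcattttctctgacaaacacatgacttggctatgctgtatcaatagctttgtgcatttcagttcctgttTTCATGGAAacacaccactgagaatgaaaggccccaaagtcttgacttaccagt
Ifitm3: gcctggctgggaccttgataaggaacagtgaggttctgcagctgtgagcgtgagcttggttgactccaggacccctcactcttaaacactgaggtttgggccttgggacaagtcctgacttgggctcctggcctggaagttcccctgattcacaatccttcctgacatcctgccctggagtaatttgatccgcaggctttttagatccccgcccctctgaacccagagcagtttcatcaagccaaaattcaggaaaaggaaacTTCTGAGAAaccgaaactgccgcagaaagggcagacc
Serpina3f: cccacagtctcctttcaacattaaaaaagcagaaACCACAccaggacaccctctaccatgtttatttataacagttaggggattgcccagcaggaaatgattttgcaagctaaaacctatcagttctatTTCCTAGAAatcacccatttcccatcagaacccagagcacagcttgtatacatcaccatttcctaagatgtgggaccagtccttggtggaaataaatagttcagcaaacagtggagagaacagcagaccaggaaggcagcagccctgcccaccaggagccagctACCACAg
Serpina3g: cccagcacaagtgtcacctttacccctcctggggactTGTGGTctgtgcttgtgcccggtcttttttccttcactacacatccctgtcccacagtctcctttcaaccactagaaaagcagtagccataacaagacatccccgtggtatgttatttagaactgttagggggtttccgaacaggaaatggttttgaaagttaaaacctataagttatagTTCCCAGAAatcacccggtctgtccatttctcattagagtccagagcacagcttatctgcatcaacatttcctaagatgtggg
Lck: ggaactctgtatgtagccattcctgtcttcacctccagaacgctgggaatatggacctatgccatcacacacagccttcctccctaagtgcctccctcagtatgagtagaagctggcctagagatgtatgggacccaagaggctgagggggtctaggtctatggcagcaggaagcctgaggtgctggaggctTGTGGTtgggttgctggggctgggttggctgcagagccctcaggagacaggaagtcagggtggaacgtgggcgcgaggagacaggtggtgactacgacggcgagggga

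Il4, Serpina3f and Lck had 2 windows each in the table, and the first that holds a match is shown. The Il4 window shown belongs to a start 1331 bases inside the annotated gene. There the STAT pattern TTCATGGAA runs from 4 bases before that internal start to base 5 after it. The Il4 window at the 5′ end of the gene, chr11:53618616-53618915, holds neither pattern. In Ifitm3 TTCTGAGAA lies at bases 14 to 22 after the start. Serpina3f and Serpina3g each hold 1 STAT pattern, TTCCTAGAA at 121 to 113 bases before the start of Serpina3f and TTCCCAGAA at 33 to 25 bases before that of Serpina3g. The start used for Serpina3g lies 98 bases before the annotated 5′ end of the gene, and that of Serpina3f lies at it, so the distances are not alike. The neighbouring windows of these copies of 1 gene family matched at 169 of 202 aligned bases, 83.7%, so their patterns are not separate observations. The Lck window shown, at the 5′ end of the gene, holds 1 RUNX pattern, 58 to 53 bases before the start, and its other window, 15269 bases inside the gene, holds neither pattern.

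Across the called genes, 75 of 106 up and 37 of 54 down had at least 1 window in the RefSeq table, with 95 and 43 windows, against 10164 windows of 8003 tested genes. The STAT pattern was in 17.9% of windows of rising genes, 11.6% of windows of falling genes and 7.11% of all windows. The RUNX pattern was in 23.2%, 23.3% and 12.8%. The patterns were counted separately, and a window that holds both, such as those of Serpina3f and Serpina3g, counts under each. Rising and falling genes had windows of lower GC content, with medians of 53% and 57.3% against 60.7% over all windows, and the part of base composition in these shares was not tested. Such a match is a run of letters and not a shown site, and a window without one says nothing of the factor.

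Genes of cytokine signalling that rose included Il4, Socs1, Socs2, Gimap4, Igf1 and Id1. Of 20 tested genes of JAK-STAT feedback and STAT5 targets 5 rose and none fell, and the median log2 fold change of the list was 1.43, against 0.00 over all tested genes. This list, like the others here, was chosen with earlier results of these data known. Its counts and median are therefore descriptions, and no set test was run. In the double mutant, which lacks the Flt3 duplication, Socs1, Socs2, Gimap4, Igf1 and Id1 had means of 2.48, 69.7, 88.3, 38.6 and 14.4 RPKM. In the triple mutant they had 9.61, 110, 98.5, 16.9 and 29.4 RPKM, and none passed against the double mutant. Il4 (chromosome 11, 53602982 to 53618669, minus strand), the cytokine of type 2 helper T cells and mast cells, had 0, 0.119, 0.238 and 0.0411 RPKM in controls 1 to 4. These values rest on 0, 2, 5 and 1 reads. In triple mutants 1 to 4 it had 106, 278, 96.9 and 76.5 RPKM, from 2431, 4370, 2017 and 1565 reads. The control libraries were thus next to 0 and all 4 triple mutant libraries were far above them, with a log2 fold change of 6.81 (SE 0.41, limma adjusted p = 5.89e-08). The double mutant had 80.6, 75.5, 99.4 and 125 RPKM, within the range of the triple mutant apart from its lowest value.

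Socs1, an inhibitor that binds JAK kinases and shuts off cytokine signalling, had 0, 0, 0.0599 and 0.0259 RPKM in controls and 2.52, 3.77, 17.2 and 14.9 RPKM in triple mutants. Triple mutants 3 and 4 were several-fold above 1 and 2, and the log2 fold change was 3.03 (SE 0.55, limma adjusted p = 0.00705). Socs2 (chromosome 10, 95385362 to 95417180, minus strand), a feedback inhibitor that STAT5 is known to induce, had 6.45, 2.08, 2.30 and 0.192 RPKM in controls and 108, 146, 29.1 and 158 RPKM in triple mutants. Its groups lay apart, with a log2 fold change of 4.92 (SE 0.56, limma adjusted p = 0.000143). Of 8 tested SOCS family genes these 2 rose, and the median of the family was 0.09, −0.09 with equal sums and 0.31 without triple mutant 1 and control 1. Cish, another feedback inhibitor of this family, had 0.478, 14, 2.56 and 22.4 RPKM in controls and 44.7, 49.4, 15.4 and 99.4 RPKM in triple mutants, with overlap through triple mutant 3 and limma adjusted p = 0.0727.

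Gimap4, a GTPase gene of lymphocytes, had 0, 8.73, 11.2 and 11.1 RPKM in controls and 45.6, 59.9, 74.1 and 214 RPKM in triple mutants, a log2 fold change of 3.74 (SE 0.72, limma adjusted p = 0.0119). It was the 1 member of 8 tested GIMAP genes that rose. Igf1, an insulin-like growth factor, had control values of 0.00472 to 0.236 RPKM and 26.2, 35.1, 1.20 and 5.29 RPKM in triple mutants, with limma adjusted p = 0.0358. Id1, an inhibitor of helix-loop-helix transcription factors, had 4.45, 0, 0.0440 and 7.53 RPKM in controls and 38.7, 45.9, 6.22 and 27 RPKM in triple mutants, overlapping, with limma adjusted p = 0.0439. Igf1 passed without triple mutant 3 or 4 and lost its call in the other 6 fits without 1 library, at adjusted p up to 0.126. Id1 passed without control 4 or triple mutant 3 and lost its call in the other 6, at adjusted p up to 0.138. Over the 20 tested genes of JAK-STAT feedback and STAT5 targets the log2 fold change was positive for 13 and negative for 7. Among the negative members, Ccnd2 had means of 56.3 and 30.7 RPKM in control and triple mutant, without overlap. Bcl2 had 4.87 and 1.45 RPKM, and neither passed. The STAT5 targets Pim2, Bcl2l1 and Ccnd3 had means of 1.07 and 26.2 RPKM, 8.43 and 27.2 RPKM, and 14.7 and 42.1 RPKM in control and triple mutant, and none of them passed. In Pim2 the triple mutant values were 9.89, 3.81, 2.06 and 89.2 RPKM, so its mean rests mostly on triple mutant 4.

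Because Il4 is also a mast cell and basophil gene, the markers of those cells are given beside it. Of 16 markers 7 were tested, 9 were not analysed here, and 1 rose, Il4 itself. Their log2 fold changes were positive for 5 and negative for 2, Mcpt8, with means of 7.62 and 4.04 RPKM in control and triple mutant, and Kit, neither of which passed. The 7 together summed to 87.3 to 185 RPKM in control and 358 to 745 RPKM in the triple mutant, and their median log2 fold change was 2.19, and 4.23 by voom. Cpa3, the carboxypeptidase of mast cells and their progenitors, had 16.2, 113, 78.3 and 94.1 RPKM in controls and 190, 183, 566 and 318 RPKM in triple mutants, with limma adjusted p = 0.0541. Gata2, a transcription factor of mast cells and blood stem cells, had 1.55 ± 2.27 and 16.4 ± 19.6 RPKM (SD, n = 4), highest in triple mutant 4 with 45.6 RPKM. Hdc, the enzyme that makes histamine, had 31.8 RPKM in triple mutant 4 and at most 2.10 RPKM in any other triple mutant or control library. The part of such cells in the Il4 result was not tested.

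Of 49 tested interferon response genes 6 rose and none fell, and 7 had groups that did not overlap. Over all tested genes 0.992% rose, 0.505% fell and 7.67% did not overlap. The log2 fold change was above 0 for 48 of the 49, against 50.1% of all tested genes, and the median was 1.35, between 0.93 and 1.42 under the other scalings, voom and without triple mutant 1 and control 1. The list summed to 2158 to 4856 RPKM in control and 3069 to 15615 RPKM in the triple mutant, so the sums overlapped. Interferons induce these genes to limit viral growth, and several are also expressed by resting progenitors. Ifi27l2a had 89.6, 210, 123 and 125 RPKM in controls and 3321, 1776, 2487 and 238 RPKM in triple mutants, a log2 fold change of 3.38 (SE 0.60, limma adjusted p = 0.00675). Triple mutant 4 lay far below the other 3 and just above the highest control. The DNA sensor gene Ifi204 had 0.964 to 8.31 RPKM in controls and 23.1, 45.1, 23.9 and 43.9 RPKM in triple mutants, with limma adjusted p = 0.0125, and 0.0506 without triple mutant 2. Isg20, an exonuclease gene, had 23.3, 24.9, 79.5 and 22.5 RPKM in controls and 565, 306, 289 and 44.8 RPKM in triple mutants, where triple mutant 4 fell within the control range.

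Oas3, Iigp1 and Igtp rose as well, with log2 fold changes of 1.93, 2.95 and 1.91 and limma adjusted p of 0.0326, 0.0430 and 0.0209. Oas3 makes the messenger that activates RNase L, and Iigp1 and Igtp are immunity-related GTPases. In the fits without 1 library Isg20 kept its call without control 3 or triple mutant 4, Oas3 without triple mutant 4, Iigp1 without control 2 or triple mutant 4, and Igtp without control 2, 3 or 4 or triple mutant 4. Elsewhere they lost it, at adjusted p up to 0.111 for Isg20, 0.1001 for Oas3, 0.1135 for Iigp1 and 0.0720 for Igtp. Irf7, a transcription factor that drives this response, had 50.2 ± 19.98 RPKM in control and 143 ± 59.3 RPKM in the triple mutant (SD, n = 4), and did not pass. Cxcl10, a chemokine that interferon induces, had 0, 3.74, 0.328 and 0.0630 RPKM in controls and 108, 43.9, 92.5 and 4.61 RPKM in triple mutants, without overlap and with limma adjusted p = 0.0769.

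Ifitm1 and Ifitm3, interferon-induced transmembrane genes, had the highest mean RPKM of the 106 genes called up in the triple mutant. They encode small membrane proteins that block virus entry. Ifitm1 (chromosome 7, 140967221 to 140969825, plus strand) had 426, 600, 512 and 209 RPKM in controls and 10210, 8191, 3118 and 4726 RPKM in triple mutants, a log2 fold change of 3.86 (SE 0.43, limma adjusted p = 0.000117). Ifitm3 (chromosome 7, 141009586 to 141010770, minus strand) had 610, 812, 628 and 722 RPKM in controls and 11015, 7482, 5034 and 2411 RPKM in triple mutants, a log2 fold change of 3.03 (SE 0.40, limma adjusted p = 0.000564). Each triple mutant library was above every control for both genes, and the lowest libraries were triple mutant 3 for Ifitm1 and triple mutant 4 for Ifitm3. Of the 3 tested Ifitm genes these 2 rose. They are close copies and neighbours, and how the authors' counting split reads between copies is not given in the sources used here, so the single values of Ifitm1 and Ifitm3 are uncertain to that extent.

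Of 17 tested genes of MHC class I, which shows peptides from inside the cell to T cells, 3 rose, none fell and 5 had groups that did not overlap. The shares over all tested genes were 0.992%, 0.505% and 7.67%. The log2 fold change was positive for 16 of the 17, and their median was 1.08. H2-D1 (chromosome 17, 35262730 to 35267499, plus strand) had 193, 240, 200 and 269 RPKM in controls and 835, 629, 631 and 880 RPKM in triple mutants, with a narrow spread and a log2 fold change of 1.71 (SE 0.25, limma adjusted p = 0.00142). H2-K1 rose from 380 ± 105 to 1138 ± 197 RPKM and H2-Q4 from 3.68 ± 1.76 to 28.1 ± 7.53 RPKM (SD, n = 4), with limma adjusted p of 0.0051 and 0.00246. H2-Q5, a neighbour of H2-Q4 outside the list, rose from 2.20 ± 1.68 to 26.2 ± 6.28 RPKM (limma adjusted p = 0.00705). These genes are near-identical in places, so reads may have been split or shared among them. B2m, the light chain of every class I molecule, had 5998 ± 937 and 11457 ± 4863 RPKM, and the peptide transporter Tap1 and proteasome subunit Psmb9 had means of 38.8 and 73.3 RPKM, and 183 and 443 RPKM. None of B2m, Tap1 and Psmb9 passed. Of 11 tested MHC class II genes none passed. Their median was 0.79, and −0.18 without triple mutant 1 and control 1, so its direction rests on those libraries. H2-Ab1, a member of the list, had 379 RPKM in triple mutant 1 and 60.9, 73.7 and 147 RPKM in the others, against 14 to 94.2 RPKM in controls.

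**Figure D2:**
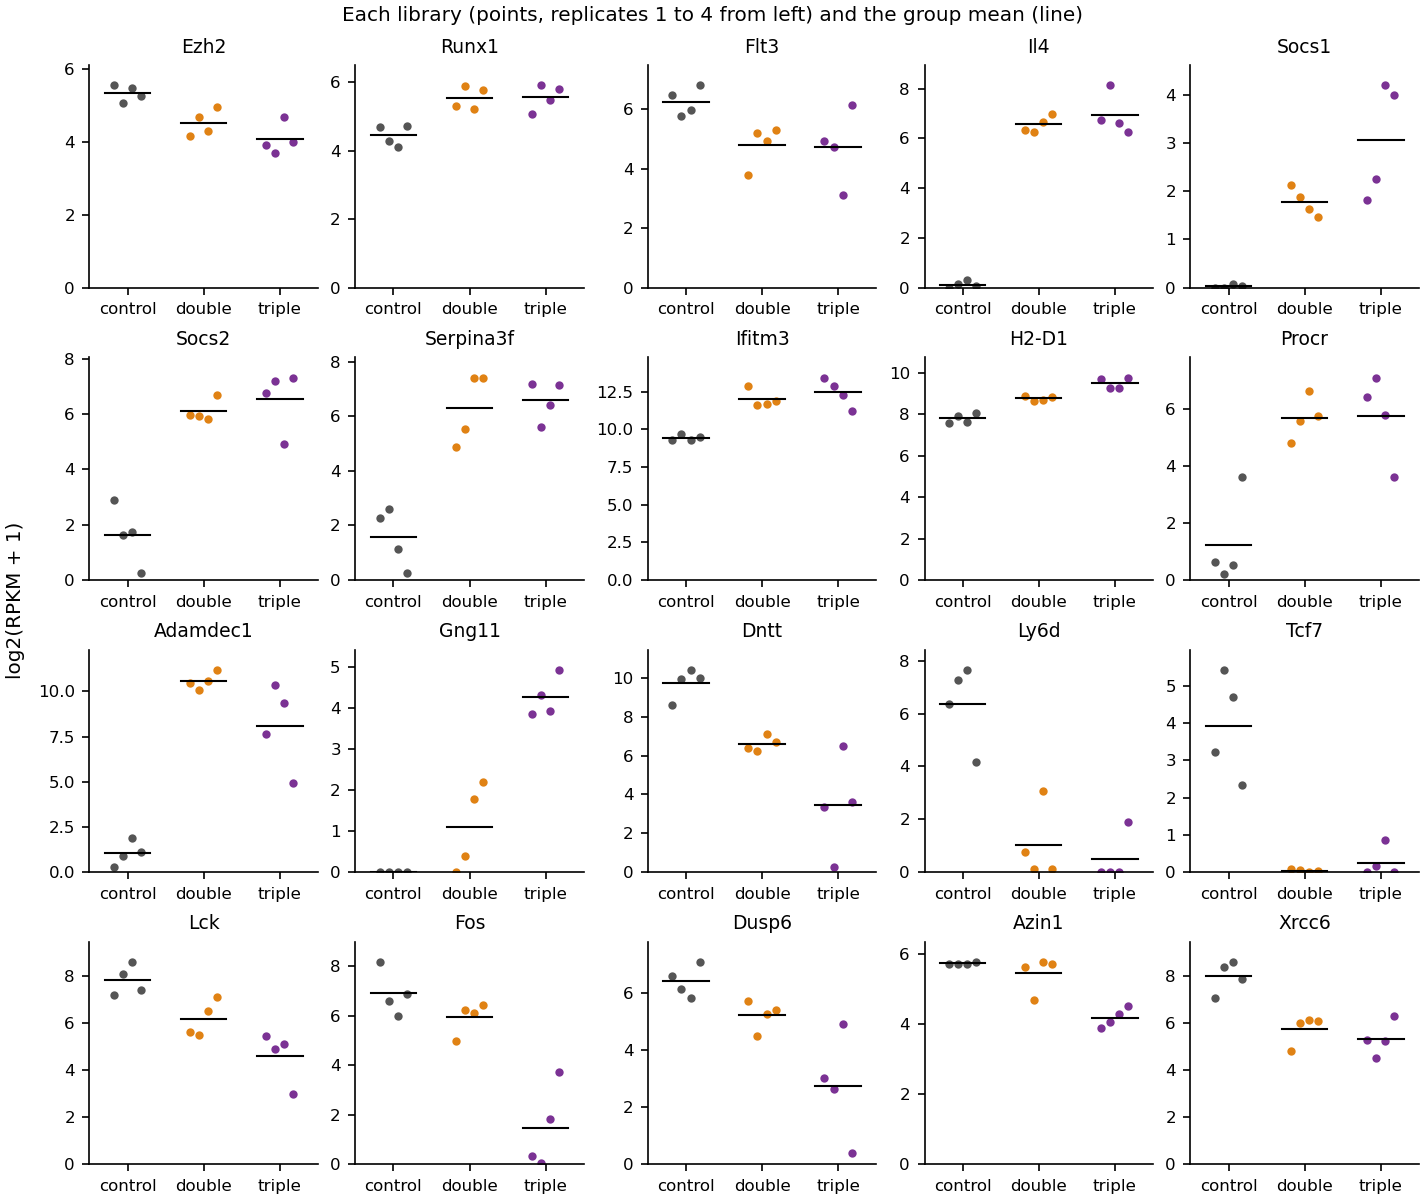
Log2(RPKM + 1) of 20 genes in each of the 12 libraries, as points for replicates 1 to 4 from left to right in control, double mutant and triple mutant, with the group mean as a line and each axis starting at 0. Il4, Socs1 and Gng11 sit near 0 in the control libraries, and Ly6d and Tcf7 sit near 0 in most triple mutant libraries. Fos, Azin1 and Gng11 differ from the double mutant more than Il4 or Xrcc6 do, but no gene passed that comparison.

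Genes of stem cells and early progenitors rose in part. Of 24 tested members 5 rose and none fell, and the median log2 fold change was 0.43, 0.19 with equal sums. Procr (chromosome 2, 155751117 to 155755471, plus strand), the endothelial protein C receptor and a marker of blood stem cells, had 0.539, 0.167, 0.426 and 11.3 RPKM in controls and 86.4, 138, 55.4 and 11.4 RPKM in triple mutants. Control 4 and triple mutant 4 thus nearly met, and the log2 fold change was 4.51 (SE 0.76, limma adjusted p = 0.0044). Esam, an adhesion molecule of stem cells and endothelium, had 0, 5.47, 0.0865 and 0.0187 RPKM in controls and 61.7, 69.1, 41.6 and 3.67 RPKM in triple mutants (limma adjusted p = 0.00871), overlapping through control 2 and triple mutant 4. Myct1, a membrane protein of stem cells, had 0.0929 to 3.02 RPKM in controls and 14.2, 15.9, 4.65 and 17.4 RPKM in triple mutants (limma adjusted p = 0.0104). Hlf, a transcription factor of stem cells, had 0 to 2.14 RPKM in controls and 9.11, 9.91, 5.04 and 25.9 RPKM in triple mutants (limma adjusted p = 0.0209). Leaving out control 3 or control 4 ended the call of Hlf, at adjusted p up to 0.0664. Procr, Esam, Myct1 and Hlf lost their calls without triple mutant 1 and control 1 together, at adjusted p of 0.0604, 0.0967, 0.0914 and 0.0901.

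Other progenitor genes moved less. Meis1, a homeobox factor of stem cells and leukaemia, had 26.5 ± 4.99 and 79.2 ± 39.6 RPKM (SD, n = 4; limma adjusted p = 0.0918), without overlap. Lmo2, a bridging factor that is an oncogene in T-cell leukaemia, had 69.3, 21.1, 21.6 and 12.9 RPKM in controls and 76.9, 74.6, 94.5 and 60.7 RPKM in triple mutants, with control 1 inside the triple mutant range and limma adjusted p = 0.119. Lyl1, its partner, had 35 ± 8.63 and 66.4 ± 14.9 RPKM, and Hhex, a homeobox factor of early progenitors, 131 ± 40.5 and 57 ± 9.65 RPKM, neither passing. Ly6a, the stem cell antigen Sca-1, had 328, 485, 342 and 768 RPKM in controls and 3762, 1064, 1506 and 426 RPKM in triple mutants, so triple mutant 4 lay inside the control range. Of 30 tested genes linked to early thymic progenitor leukaemia and other T-cell leukaemias none passed, and the median was −0.53, and −0.17 without triple mutant 1 and control 1. Of 8 tested Hox and Hox cofactor genes none passed.

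Secreted proteins and enzymes had some of the largest differences. Adamdec1 (chromosome 14, 68563380 to 68582095, minus strand), a secreted metalloprotease, had 0.214, 0.832, 2.73 and 1.13 RPKM in controls and 196, 1299, 662 and 29.8 RPKM in triple mutants. Triple mutants 2 and 4 differed widely from each other, yet all 4 were above every control, with a log2 fold change of 7.03 (SE 0.79, limma adjusted p = 0.000117). Rnase12, a secreted ribonuclease gene, had 0.406, 1.57, 1.84 and 17.3 RPKM in controls and 191, 1566, 519 and 185 RPKM in triple mutants (log2 fold change 6.80, SE 0.72, limma adjusted p = 7.31e-05). Of 6 tested secreted ribonuclease genes 3 rose, Rnase12, Rnase10 and Ang, with Rnase10 from 2.67 ± 4.28 to 28.4 ± 23.5 RPKM and Ang from 2.55 ± 4.51 to 15.9 ± 6.73 RPKM (SD, n = 4), at limma adjusted p of 0.0236 and 0.0478. In both the highest control, control 4, reached into the triple mutant range. Rnase10 kept its call without control 4, triple mutant 1 or triple mutant 4 and Ang without control 4 or triple mutant 4, and in the other fits without 1 library their adjusted p ran up to 0.0810 and 0.133.

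Serpina3f (chromosome 12, 104214544 to 104221129, plus strand) and Serpina3g (104236245 to 104241939), neighbouring serine protease inhibitor genes, rose together. Serpina3f had 3.82, 5.08, 1.21 and 0.181 RPKM in controls and 146, 47.4, 84 and 140 RPKM in triple mutants (log2 fold change 5.02, SE 0.62, limma adjusted p = 0.000358). Serpina3g had 45.3, 103, 94.1 and 56.4 RPKM in controls and 467, 315, 308 and 653 RPKM in triple mutants (log2 fold change 2.54, SE 0.40, limma adjusted p = 0.00269). Both were highest in triple mutants 1 and 4, and as close copies they may share reads. Serpina3f had a mean of 104 RPKM in the double mutant and 104 RPKM in the triple mutant, and Serpina3g 463 and 436 RPKM. Ccl5, a chemokine for T cells and monocytes, had 0, 7.09, 14.6 and 8.67 RPKM in controls and 1533, 251, 170 and 50.7 RPKM in triple mutants (limma adjusted p = 0.00287). Its triple mutant mean rests on triple mutant 1, but the other 3 libraries were also above every control. Of 7 tested chemokine genes it was the 1 that passed. Ebi3, a subunit of the cytokines IL-27 and IL-35, rose from 86 ± 60.8 to 389 ± 176 RPKM (SD, n = 4; limma adjusted p = 0.0176), with triple mutant 4, at 167 RPKM, below control 4, at 173 RPKM. Ebi3 lost its call without control 1 or 2 or triple mutant 1 or 2, at adjusted p up to 0.0631.

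Further genes with large rises had varied functions. Otos, a secreted protein known from the inner ear, had 0, 9.76, 3.47 and 0.0492 RPKM in controls and 137, 100, 18.5 and 158 RPKM in triple mutants (limma adjusted p = 0.00165). Slfn2, a regulator of T-cell quiescence, rose from 6.48 ± 7.91 to 110 ± 55.8 RPKM, and F2r, the thrombin receptor, from 2.54 ± 1.13 to 56.3 ± 31.5 RPKM (SD, n = 4), at limma adjusted p of 0.0016 and 0.000358. Efna1, an ephrin ligand, had at most 0.171 RPKM in controls and 5.34, 67.8, 18.5 and 3.31 RPKM in triple mutants (limma adjusted p = 0.00705). Casp12, an inflammatory caspase, had at most 0.0193 RPKM in controls and 7.60, 42.7, 18.2 and 12.9 RPKM in triple mutants (limma adjusted p = 0.000358). Akr1b7, an aldo-keto reductase, Plxdc2, a membrane protein, and Apol9a, an apolipoprotein L gene, rose with log2 fold changes of 4.23, 3.98 and 3.79. Dtnbp1, a subunit of a complex that sorts proteins to lysosome-related organelles, had the smallest spread among triple mutants of the genes called up, with a rise from 33.9, 46.6, 54.8 and 37.2 RPKM to 154, 185, 160 and 165 RPKM (log2 fold change 1.94, SE 0.27, limma adjusted p = 0.00093). Capg, an actin filament capping protein, rose from 22.3 ± 4.94 to 124 ± 46.3 RPKM, Chchd7, a mitochondrial protein, from 33.2 ± 3.91 to 142 ± 36.7 RPKM, and Nt5c3, a nucleotidase, from 16 ± 6.97 to 94.9 ± 18.8 RPKM (SD, n = 4). Their limma adjusted p were 0.0012, 0.00152 and 0.00246, and Capg, Chchd7 and Nt5c3 were chosen after their values were seen.

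The lymphoid programme was lower. Of 17 tested lymphoid priming genes 3 fell, Dntt, Ly6d and Ccr9, and none rose, and the median log2 fold change was −0.78, −1.04 with equal sums. Dntt (chromosome 19, 41029275 to 41059525, plus strand), the terminal transferase that adds bases at antigen receptor joints, had 389, 987, 1379 and 1029 RPKM in controls and 9.05, 0.201, 90.1 and 11.4 RPKM in triple mutants. It had the largest fall of the called genes, with a log2 fold change of −6.32 (SE 0.84, limma adjusted p = 0.000564), and triple mutant 2 held 8 reads against 22482 to 73295 in the controls. Ly6d (chromosome 15, 74762056 to 74763620, minus strand), a surface marker of lymphoid progenitors, had 81.7, 153, 202 and 17 RPKM in controls. It was listed at 0 in triple mutants 1 to 3 and at 2.74 RPKM in triple mutant 4, with a log2 fold change of −5.89 (limma adjusted p = 0.000657). Ccr9, a receptor for homing to the thymus, had 11.4, 7.69, 11.6 and 5.72 RPKM in controls, 0.0855 RPKM in triple mutant 2 and 0 in the other 3 (limma adjusted p = 0.00543).

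Genes of T-cell specification and receptor signalling fell in 3 of 19 tested cases, Tcf7, Lck and Cd7, and none rose. The log2 fold change was positive for 9 of the 19 and negative for 10, against 50.1% positive over all tested genes. The median was −0.45, −0.61 with equal sums and −0.33 without triple mutant 1 and control 1. Among the positive members, Fyn had means of 18.1 and 38.1 RPKM and Thy1 of 3.94 and 9.84 RPKM in control and triple mutant, neither passing. Tcf7 (chromosome 11, 52252371 to 52283014, minus strand), the factor by which Notch starts the T programme, had 8.39, 42.4, 25.2 and 4.08 RPKM in controls and 0, 0.120, 0.814 and 0 RPKM in triple mutants, a log2 fold change of −3.68 (SE 0.59, limma adjusted p = 0.00283). Lck (chromosome 4, 129548344 to 129573641, minus strand), the kinase at the start of T-cell receptor signalling, had 146, 269, 390 and 170 RPKM in controls and 42.9, 28.6, 33.5 and 6.83 RPKM in triple mutants, a log2 fold change of −3.22 (SE 0.52, limma adjusted p = 0.00281). All triple mutant libraries lay below the lowest control. Cd7, a surface protein of early T and natural killer cells, had 110, 354, 332 and 139 RPKM in controls and 65.7, 0.0516, 33.6 and 6.22 RPKM in triple mutants (limma adjusted p = 0.0420). Its triple mutant values ran from near 0 to close to the lowest control, and it kept its call without triple mutant 1 or 3, with adjusted p up to 0.110 in the other 6 fits without 1 library. Lat, the adaptor below Lck, had 76.5 ± 18.3 and 30.3 ± 13.2 RPKM (limma adjusted p = 0.0594), and its relative Lat2 fell from 181 ± 16 to 40.5 ± 33.9 RPKM (SD, n = 4; limma adjusted p = 0.0247). Lat2 kept its call without triple mutant 1 or 4, with adjusted p up to 0.0724 in the other 6 fits. Of 9 tested Notch receptors and targets none passed.

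Some of the lost genes also mark plasmacytoid dendritic cells, which share genes with lymphoid progenitors. Of 17 such markers 10 were tested and 4 fell, Dntt, Ly6d, Ccr9 and Cox6a2, and 5 were not analysed here. The log2 fold change was positive for 5 of the 10 and negative for 5. Its median was −0.28, and −0.50 with equal sums. Bst2 had means of 120 and 281 RPKM and Ly6c2 of 2.91 and 12.6 RPKM in control and triple mutant, and they, Irf8, Tcf4 and Tlr7 were the positive members, none of which passed. The measured markers summed to 590 to 1816 RPKM in control and 143 to 590 RPKM in the triple mutant. Dntt dominates the control sum, with 389 to 1379 RPKM. In the triple mutant Dntt had 0.201 to 90.1 RPKM and Bst2 82.7 to 518 RPKM. Cox6a2 (chromosome 7, 128205435 to 128206387, minus strand), a cytochrome oxidase subunit, had 22.9, 17.2, 29.6 and 26.3 RPKM in controls, from 226 to 500 reads, and was listed at 0 in all 4 triple mutants (limma adjusted p = 7.31e-05). Siglech, a defining marker of these cells, was at most 0.126 RPKM in control and 0.246 RPKM in the triple mutant. The part of such cells in these falls was not tested.

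Other genes also fell, several of them to near 0 in most triple mutant libraries. Cd160, a receptor of natural killer and T cells, had 3.52, 33.8, 30.9 and 3.54 RPKM in controls, 0.327 RPKM in triple mutant 4 and 0 in the other 3 (limma adjusted p = 0.00705). Havcr2, the inhibitory receptor TIM-3, had 13.9, 5.07, 18 and 9.25 RPKM in controls and 0, 0.0197, 0.0149 and 2.04 RPKM in triple mutants (limma adjusted p = 0.00367). Smim5, a small membrane protein, followed the same pattern, at 19.9 to 82.3 RPKM in controls, 0 in triple mutants 1 to 3 and 10.6 RPKM in triple mutant 4 (limma adjusted p = 0.00961). St8sia1, the enzyme that makes ganglioside GD3, fell from 5.79 ± 1.17 to 0.0796 ± 0.0466 RPKM (SD, n = 4; limma adjusted p = 0.00165). Xrcc6, the Ku70 subunit that binds DNA ends for joining, had 132, 330, 384 and 233 RPKM in controls and 38, 21.7, 36.7 and 76.6 RPKM in triple mutants, a log2 fold change of −2.65 (SE 0.43, limma adjusted p = 0.00319). Like Dntt it acts in antigen receptor joining, and it was chosen after its values were seen. Hsd11b1, a steroid dehydrogenase, and Zfyve28, an endosomal protein, were listed at 0 in all 4 triple mutants, with control means of 8.22 and 2.51 RPKM. Both lost their calls in all 8 fits without 1 library, at adjusted p up to 0.102 and 0.1185.

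Of 20 tested immediate early genes 4 fell, Fos, Jun, Zfp36 and Ppp1r15a, and none rose. The median log2 fold change was −1.03, −1.24 with equal sums and −0.61 without triple mutant 1 and control 1. These genes respond within minutes to growth signals and to stress, including cell dissociation. Fos (chromosome 12, 85473890 to 85477273, plus strand), a subunit of the AP-1 transcription factor, had 289, 94.6, 62.6 and 116 RPKM in controls and 0.245, 0.0256, 2.57 and 12.3 RPKM in triple mutants, a log2 fold change of −5.42 (SE 0.68, limma adjusted p = 0.000358). Jun, its partner, fell from 25.2 ± 19.9 to 3.14 ± 3.75 RPKM, Zfp36, which destabilises messenger RNAs, from 92.6 ± 42.2 to 18 ± 11.5 RPKM, and Ppp1r15a, a stress-induced phosphatase subunit, from 32.2 ± 20.1 to 1.69 ± 1.71 RPKM (SD, n = 4). Their limma adjusted p were 0.0373, 0.0287 and 0.0223. Each lost its call in 4 or 5 fits without 1 library, among them those without control 1, control 4, triple mutant 1 or triple mutant 2, at adjusted p up to 0.120, 0.0895 and 0.0767. The other fits that lost a call were those without control 2 for Zfp36 and without control 3 for Ppp1r15a. Egr1 had 14.2, 2.22, 0.274 and 1.78 RPKM in controls and at most 0.443 RPKM in triple mutants, and Junb 21.9 ± 8.68 and 15.5 ± 17.5 RPKM, neither passing. Control 1 was the highest control for Fos, Jun, Zfp36, Ppp1r15a and Egr1.

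Genes that ERK signalling is known to induce did not rise in these cells. Of 9 tested 2 fell, Dusp6 and Ccnd1, and none rose, with a median of −0.41, and −1.19 by voom. Dusp6 (chromosome 10, 99263231 to 99267489, plus strand), the phosphatase that switches ERK off, had 96.3, 69, 56 and 135 RPKM in controls and 7.12, 5.26, 29.1 and 0.309 RPKM in triple mutants, a log2 fold change of −3.67 (SE 0.67, limma adjusted p = 0.00705, and 0.0565 without triple mutant 1 and control 1 together). Ccnd1, a cyclin that starts the cell cycle, had 10.5, 4.78, 12.6 and 13.2 RPKM in controls and 2.16, 0, 1.99 and 0.771 RPKM in triple mutants (limma adjusted p = 0.0287). Ccnd1 kept its call without control 2, triple mutant 1 or triple mutant 3, with adjusted p up to 0.0910 in the other 5 fits. Spry2, another inhibitor of this pathway, had 43.7 ± 14.1 and 17 ± 11 RPKM, and did not pass. Crem, a cyclic AMP-responsive transcription factor, fell from 16 ± 5.01 to 0.933 ± 0.904 RPKM (SD, n = 4; limma adjusted p = 0.0028).

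Of 50 tested cell cycle and DNA replication genes 44 had a negative log2 fold change and 1 fell, Ccnd1, with a median of −0.70, −0.94 with equal sums. Mki67, a mark of dividing cells, had 28.4, 29.5, 19.3 and 20.5 RPKM in controls and 6.37, 10.5, 14.8 and 14.7 RPKM in triple mutants, and Top2a, the topoisomerase of dividing cells, 74.4 ± 14.3 and 32.9 ± 11.7 RPKM (SD, n = 4). Their groups did not overlap, but limma adjusted p were 0.360 and 0.180. Mcm5, of the replication helicase, had 75.3 ± 13.48 and 45.9 ± 11.2 RPKM and did not pass. Outside the list, and chosen after their values were seen, the checkpoint kinase Chek1, the mitotic phosphatase Cdc25c, the centromere protein Cenpn and the cohesion protein Cdca5 fell. Chek1 had 60.7, 19.6, 30.8 and 24.3 RPKM in controls and 10.1, 0.379, 13.9 and 2.01 RPKM in triple mutants. The limma adjusted p of these 4 genes were 0.0431, 0.0488, 0.0433 and 0.0399. Chek1 kept its call without triple mutant 1 or 3, Cdc25c without triple mutant 3, and Cenpn and Cdca5 without triple mutant 4. In the other fits without 1 library adjusted p ran up to 0.120, 0.154, 0.1175 and 0.111. Nup107, a nuclear pore subunit, fell from 35.3 ± 8.16 to 6.90 ± 2.85 RPKM (SD, n = 4; limma adjusted p = 0.00502). Azin1, which raises polyamine synthesis, had 52.2, 51.8, 51.9 and 54.2 RPKM in controls and 13.7, 15.6, 18.8 and 22 RPKM in triple mutants (limma adjusted p = 0.0269). Azin1 kept its call without triple mutant 3 or 4, with adjusted p up to 0.0739 in the other 6 fits. Of 26 tested MYC targets and ribosome biogenesis genes none passed, with a median of −0.19, −0.44 with equal sums and −0.30 without triple mutant 1 and control 1.

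**Figure D3:**
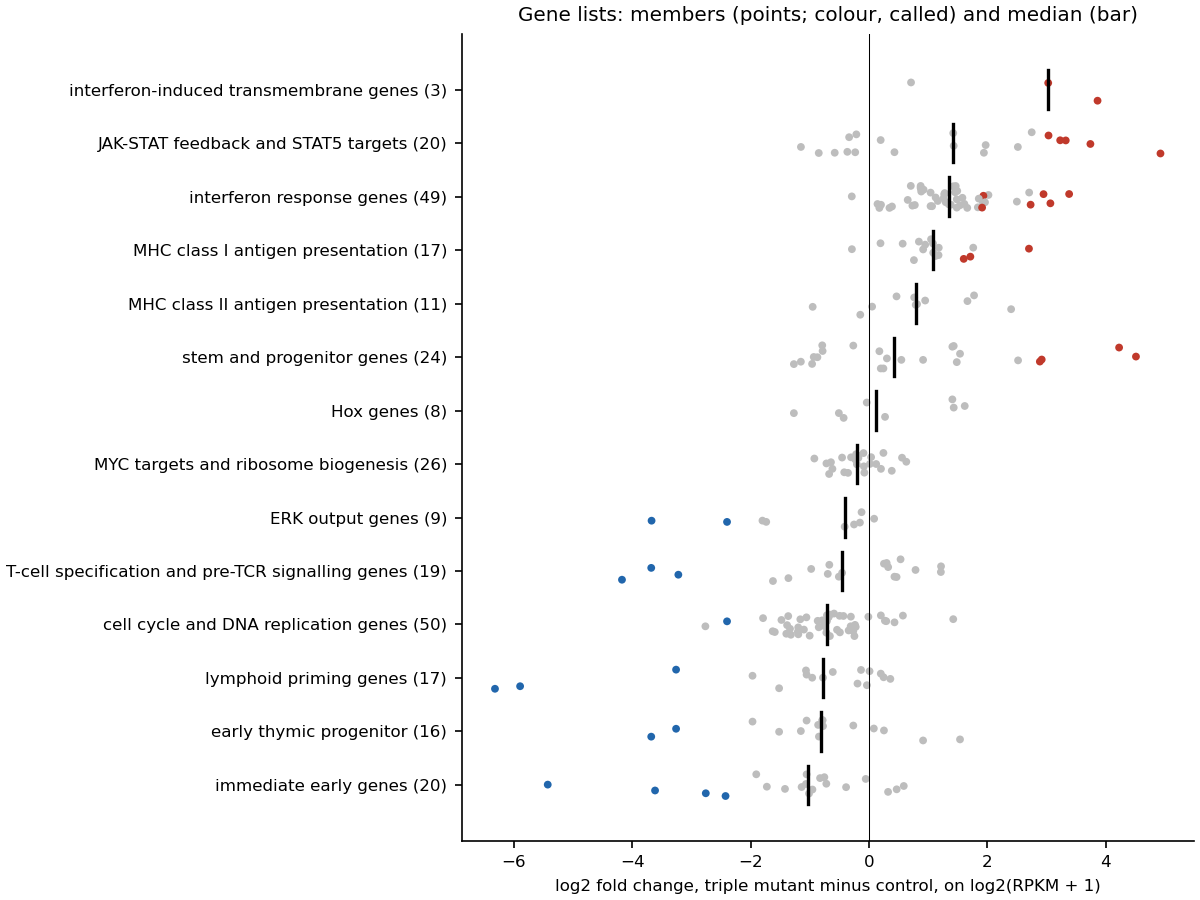
Log2 fold change of triple mutant minus control, on log2(RPKM + 1), for tested members of 14 gene lists, with the number tested in brackets. Each point is a gene, red where called up and blue where called down, a black bar is the median of the list, and 1 rising member of the stem and progenitor list is not drawn. The interferon and STAT5 lists lie to the right, with medians of 1.35 and 1.43, and the immediate early and lymphoid priming lists to the left, with medians of −1.03 and −0.78.

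Myeloid genes and markers of other blood cells moved in part. Of 16 tested myeloid transcription factors 2 rose, Spic, of red pulp macrophages, and Batf2, an interferon-induced factor. Spic had 11.1 RPKM in control 3 and at most 0.0274 in the other controls, against 66.9, 12.9, 15.2 and 18 RPKM in triple mutants. Batf2 rose from 0.0326 ± 0.0477 to 7.86 ± 1.44 RPKM (SD, n = 4). Their limma adjusted p were 0.0478 and 0.0417. Spic kept its call without control 3 alone and Batf2 lost it in every fit without 1 library, at adjusted p up to 0.161 and 0.0934. Of 17 macrophage markers 9 were tested and 2 rose, Spic and Emr1, the F4/80 antigen, and 5 were not analysed here. The measured markers summed to 22.3 to 73.2 RPKM in control and 54.8 to 158 RPKM in the triple mutant, and Vcam1 was listed at 0 in all 4 triple mutants. Emr1 had at most 0.0371 RPKM in controls and 31.8, 2.48, 2.496 and 43.4 RPKM in triple mutants (limma adjusted p = 0.0481, up to 0.157 without 1 library, kept without triple mutant 2 or 3). C1qb and Csf1r, also of macrophages, had 13.4 ± 9.34 and 4.85 ± 5.73 RPKM, and 16.6 ± 16.1 and 20.7 ± 9.53 RPKM, and did not pass.

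Of 13 tested granule genes of neutrophil and mast cell progenitors 1 rose, Ctsg, the cathepsin G of granules, from 0.442, 5.76, 13.7 and 8.12 RPKM to 184, 42.6, 15.3 and 218 RPKM (limma adjusted p = 0.0247). Triple mutant 3 lay just above control 3. Ctsg lost its call without control 1 or 2 or triple mutant 1 or 4, at adjusted p up to 0.0975. Csf3r, the receptor of granulocyte growth factor, had 3.84 ± 3.04 and 19.2 ± 11.1 RPKM, and Csf2rb, the shared chain of the interleukin 3 receptor, 5.33 ± 4.96 and 21.6 ± 10.1 RPKM (SD, n = 4), neither passing. Of 35 tested cytokine receptor chains 1 rose, and the median was 0.42, 0.22 with equal sums and 0.18 without triple mutant 1 and control 1. Of 4 tested conventional dendritic cell markers 1 rose, Clec10a, a lectin, which had 2.14 RPKM in control 2, 0 in the other controls, and 27.2, 21.3, 7.74 and 37.6 RPKM in triple mutants (limma adjusted p = 0.00166). The measured markers of these cells summed to 116 to 267 RPKM in control and 123 to 998 RPKM in the triple mutant, with Itgax at 0 in all 4 triple mutants. Neutrophil and monocyte markers, 6 tested and none called, summed to 66.7 to 196 and 77.6 to 391.8 RPKM. Natural killer and innate lymphoid markers, 3 tested and none called, summed to 798 to 1704 and 239 to 1499 RPKM, with Prf1 at 0 in all 4 triple mutants. Clec12a, a receptor of myeloid cells and early progenitors, fell. It had 76.4, 72.3, 88 and 67.5 RPKM in controls and 9.62, 0.0483, 0.0182 and 26.3 RPKM in triple mutants (limma adjusted p = 0.0478, up to 0.131 without 1 library, kept without triple mutant 4).

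Of 7 tested later thymocyte markers 1 rose, S1pr1, the receptor by which mature T cells leave the thymus, from at most 0.0529 RPKM in controls to 7.12, 4.55, 7.35 and 1.46 RPKM in triple mutants (limma adjusted p = 0.0247). S1pr1 kept its call without triple mutant 4 and reached an adjusted p of 0.0785 in the other 7 fits. The measured later thymocyte markers summed to 29.7 to 42.6 RPKM in control and 7.62 to 69.5 RPKM in the triple mutant. B-lineage markers, 1 tested and none called, summed to 69.6 to 111 and 55.8 to 105 RPKM, with Blk and Vpreb1 at 0 in all 4 triple mutants. Thymic stroma markers, 4 tested and none called, summed to 39.4 to 57 and 30.6 to 61.9 RPKM. Erythroid and megakaryocyte markers, 1 tested and none called, summed to 4.05 to 11.6 and 3.54 to 55.5 RPKM, with Pf4 at 0 in all 4 controls and up to 25.1 RPKM in the triple mutant. The part of these other cells in the results above was not tested.

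Against the double mutant, which lacks the Flt3 duplication, no gene passed, 0 or 0% of 10690 in limma with 824 at an unadjusted p under 0.05, and 0 in voom with 835. The mean of the triple mutant was above that of the double mutant for 83 of the 106 genes called up against control, and below it for 43 of the 54 called down. Both comparisons use the same triple mutant libraries, so these counts are not independent of the calls. At an unadjusted p under 0.05, 26 of the 106 were higher and 5 lower than in the double mutant, and 26 of the 54 were lower and none higher. The median of the 106 genes was 2.42 RPKM in control, 16.7 RPKM in the double mutant and 27.5 RPKM in the triple mutant. The median of the 54 genes was 27.4, 8.74 and 2.80 RPKM in the same order.

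Gng11 (chromosome 6, 4003904 to 4008445, plus strand), a G protein subunit, was listed at 0 in all 4 controls. It had 0, 0.314, 2.46 and 3.59 RPKM in double mutants and 13.47, 18.9, 14.3 and 29.6 RPKM in triple mutants, from 295 to 602 reads. It passed against control (limma adjusted p = 0.000358) and had an adjusted p of 0.0664 against the double mutant. C2, a complement component, was listed at 0 in the controls and in 3 of 4 double mutants and had 4.62, 1.79, 2.94 and 3.27 RPKM in triple mutants (limma adjusted p = 0.0152 against control and 0.188 against the double mutant). Rgs14, a regulator of G protein signalling, had at most 0.0313 RPKM in controls, at most 0.406 RPKM in double mutants and 2.48, 3.89, 1.74 and 6.80 RPKM in triple mutants, with adjusted p of 0.0188 and 0.261. Rgs14 lost its call against control without control 2, 3 or 4, at adjusted p up to 0.0549. S100a6, a calcium-binding protein, had 1.42 to 13.51 RPKM in double mutants and 326, 34.6, 24 and 678 RPKM in triple mutants, while controls had 20.5 to 43.3 RPKM, and neither comparison passed.

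Fos had 30.2, 73.9, 68.8 and 86.7 RPKM in double mutants, above the 0.0256 to 12.3 RPKM of the triple mutants, with a log2 fold change of −4.46 and limma adjusted p = 0.0502. Crem had 17.5, 12.3, 7.47 and 6.43 RPKM in double mutants against 1.56, 1.84, 0.00952 and 0.320 RPKM in triple mutants (log2 fold change −2.66, limma adjusted p = 0.138). Actr6, an actin-related protein of chromatin complexes, had 67.6 ± 19.3 RPKM in double mutants and 17.7 ± 6.81 RPKM in triple mutants, with 42.3 ± 7.54 RPKM in controls (limma adjusted p = 0.12 against the double mutant and 0.0939 against control). Wfdc18, a secreted protease inhibitor, had 8.09 to 14.4 RPKM in double mutants, 0 to 6.85 RPKM in controls and was listed at 0 in all 4 triple mutants. Other genes had similar levels in both mutants. St8sia1 had 0.0777 ± 0.0810 RPKM in the double mutant, and Xrcc6 55.9 ± 19.4 RPKM (SD, n = 4). A few rising genes were lower with the Flt3 duplication than without it, though none passed. Adamdec1 had 1076 to 2347 RPKM in double mutants, Rnase10 had 52.2 to 195 RPKM, and Efna1 had 39.7 to 77.3 RPKM. Against these, the log2 fold changes of the triple mutant were −2.50, −2.31 and −2.25, with limma adjusted p of 0.394, 0.36 and 0.351.

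**Figure D4:**
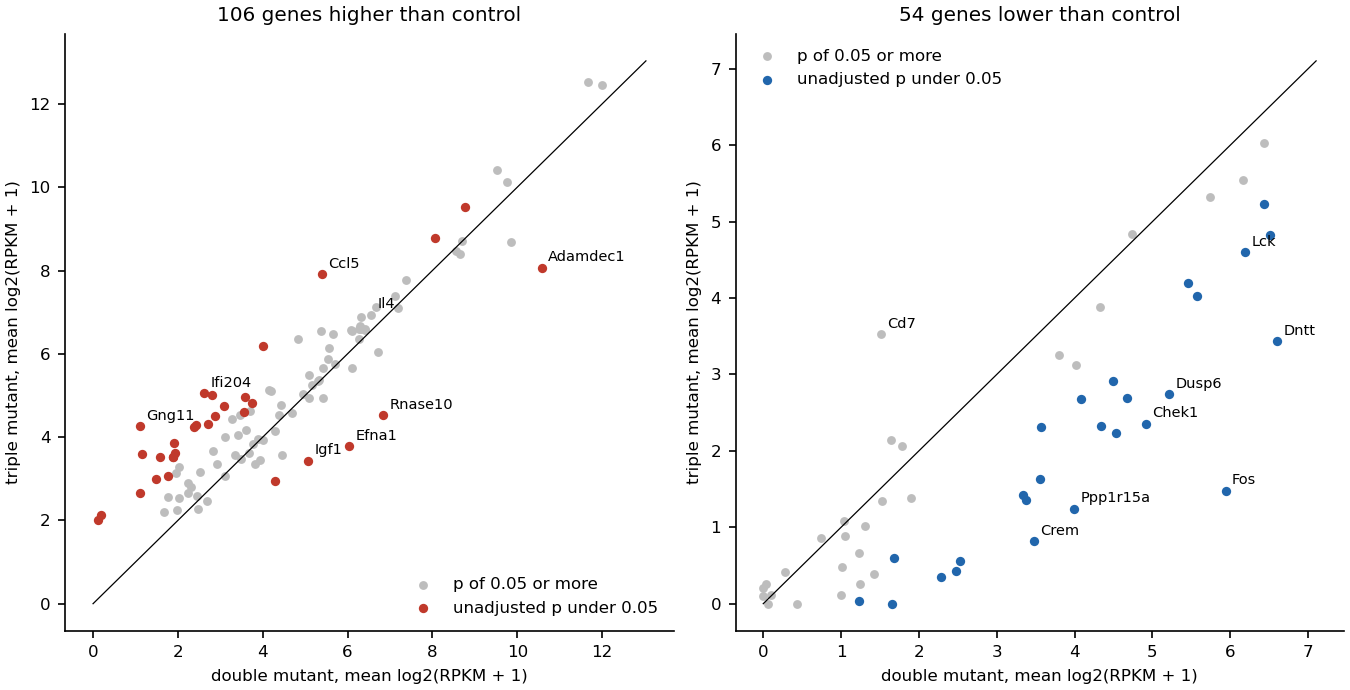
Mean log2(RPKM + 1) over 4 double mutant libraries (horizontal axes) against the mean over 4 triple mutant libraries (vertical axes), for the 106 genes called up (left) and the 54 called down (right) against control, with the line of equality. Coloured points had an unadjusted p under 0.05 between the mutants, and no gene passed after adjustment. Most points lie above the line on the left, 83 of 106 by mean RPKM, and below it on the right, 43 of 54.

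The triple mutant libraries differed from each other more than the control libraries did for 101 of the 160 called genes, 63.1%, and for 52.1% of all tested genes, by the SD of log2(RPKM + 1). Triple mutant 4 was the lowest of the 4 in 43 of the 106 genes called up, 40.6%, and the highest in 22 of the 54 called down, 40.7%. It was also the highest of the 4 in 30 of the 106, 28.3%, as was triple mutant 2. Its median difference from the control mean was 2.67 over the genes up and −2.45 over the genes down, against 2.86 to 3.21 and −2.76 to −3.44 in the other 3 triple mutants. Triple mutant 4 also had the highest correlation with the control mean, 0.883 against 0.859 to 0.866. For Dusp6, however, it had the lowest value of the 4, 0.309 RPKM.

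The widest spread among triple mutants belonged to Cd7, Dntt, Clec12a, Adamdec1, Ms4a4c, Lcn4, Ccl5, Emr1, Igf1 and Dusp6. Ms4a4c, of a family of membrane proteins in blood cells, had 334, 97.7, 195 and 12.1 RPKM in triple mutants against 0.0804 to 18.4 RPKM in controls (limma adjusted p = 0.0351). Lcn4, a lipocalin, had 5.50, 0, 25.4 and 1.22 RPKM against 43.3 to 129 RPKM (limma adjusted p = 0.0223). Ms4a4c kept its call without control 2 or 3 or triple mutant 4, and Lcn4 without control 2 or triple mutant 1 or 3, with adjusted p up to 0.126 and 0.0734 in the other fits without 1 library. The libraries did not keep 1 order across these genes. Triple mutant 2 was lowest for Cd7, Dntt and Lcn4 and highest for Adamdec1 and Igf1, and triple mutant 1 was highest for Ccl5 and Ms4a4c. The narrowest spread belonged to Zfyve28, Hsd11b1 and Cox6a2, listed at 0 throughout, to Ccr9, St8sia1, Il17re and Cd160, which were near 0, and to Dtnbp1, Gna14 and Csgalnact1. Gna14, a G protein subunit, had 10.1, 9.37, 11.6 and 8.84 RPKM in triple mutants against 0 to 2.22 RPKM in controls (limma adjusted p = 0.00705). Csgalnact1, an enzyme of chondroitin sulfate synthesis, had 5.16, 4.26, 4.21 and 5.98 RPKM against at most 0.295 RPKM (limma adjusted p = 0.00644). Il17re, a receptor for interleukin 17C, fell from 7.05 ± 5.78 to 0.0934 ± 0.145 RPKM (SD, n = 4; limma adjusted p = 0.0209, lost without control 1 or triple mutant 1 at up to 0.0611).

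**Figure D5:**
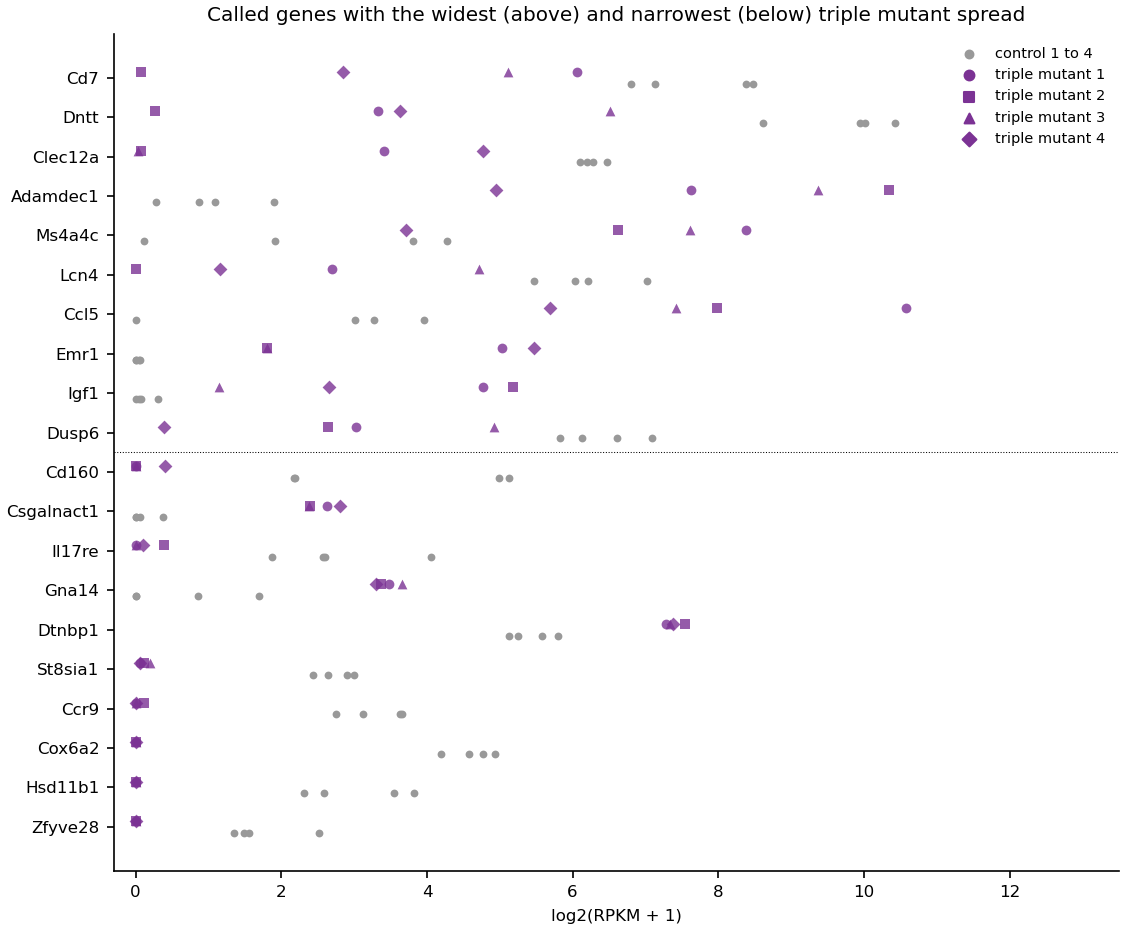
Log2(RPKM + 1) of the 10 called genes with the widest spread among triple mutant libraries (above the dotted line) and the 10 with the narrowest (below it). Grey circles are controls 1 to 4 and purple symbols are triple mutants 1 to 4, 1 shape per library. Cd7 runs from 0.0516 to 65.7 RPKM across triple mutants, while Dtnbp1 stays between 154 and 185 RPKM.

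Of 157 called genes placed on GRCm38, 30, or 19.1%, had another called gene within 200 kilobases. They formed 16 pairs when each called gene was paired only with the next called gene along the chromosome. Of the placed genes that were not called, 7.67% had a called gene within that distance. In 15 pairs both genes rose, in none did both fall, and in 1 the genes moved apart, with Cdca5 down and Batf2 up. Many pairs were copies within a family, among them Serpina3f and Serpina3g, Rnase10, Rnase12 and Ang, Ifitm1 and Ifitm3, and H2-D1, H2-Q4 and H2-Q5. Others were unrelated in sequence. Socs1 lay 2400 bases from Tnp2, a sperm nuclear protein gene, Procr 21642 bases from Edem2, and Id1 16763 bases from Cox4i2. Plag1, a zinc finger oncogene, lay 465 bases from Chchd7. Counting without regard to strand cannot separate reads of overlapping neighbours, and whether strand was used is not given in the sources used here. Rnase4, next to Ang, had 0.0185, 12.8, 19.1 and 12.6 RPKM in controls and 52.3, 41, 82.4 and 26 RPKM in triple mutants, without overlap and with limma adjusted p = 0.0797.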

How the data were processed

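Messenger RNA of 100 sorted early thymic progenitors per library was sequenced, with 4 libraries in each of 3 genotypes. The authors deposited 1 RPKM value per gene and library, for 13016 genes. TopHat2 2.0.10, SAMtools 0.1.19, HTSeq 0.5.4p5 and the build mm10 are named per the submitters' processing notes, and the counting mode, strand setting and RPKM denominator are not stated in any source used here. RPKM steps gave whole reads within 0.001 for 100% of genes, and these recovered reads gave the depths and the voom alternative.

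Genes with 1 RPKM or more in 4 or more libraries were fitted as log2(RPKM + 1) with limma 3.58.1 (intensity trend, 12 libraries in 1 fit, 9 residual degrees of freedom) in R 4.3.3, and p-values were Benjamini-Hochberg adjusted over all tested genes at 0.05. The mutated genes and Rag1 also had exact permutation tests. The script was tested on simulated data. Positions are from GENCODE mouse release 21 (GRCm38, the same assembly as mm10). Python 3.11.15 with pandas 2.3.3, numpy 2.4.6 and matplotlib 3.10.9 made the tables and figures.

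Members and gene lists were chosen with earlier results of these data known. Named genes are the mutated genes and Rag1, the 20 called up and 20 down with the largest log2 fold change (groups apart, higher mean of at least 5 RPKM, no predicted genes or pseudogenes), per list up to 6 called members or the 1 with the smallest p, the 10 widest and 10 narrowest called genes among triple mutants, and 4 up and 4 down of the smallest p against the double mutant. Some items are not reported here. Chosen after their values were seen were Kit, Cd44, Cd34, Cish, Pim2, Bcl2l1, Ccnd3, Gata2, Cpa3, Hdc, Lmo2, Lyl1, Ly6a, B2m, Psmb9, Tap1, Irf7, Lat, Lat2, Egr1, Junb, Cxcl10, Spry2, Mki67, Top2a, Mcm5, C1qb, Csf1r, Csf2rb, Azin1, Xrcc6, Nup107, Chek1, Cdc25c, Cenpn, Cdca5, Ebi3, Chchd7, H2-Q5, C2, Rgs14, Capg, Rnase4, Nt5c3, Bst2, Ly6c2, Irf8, Tcf4, Tlr7 and Mcpt8, and the neighbours Tnp2, Edem2, Cox4i2 and Plag1. Ccnd2, Bcl2, Fyn and Thy1 were also chosen after their values were seen. Alternatives were other pseudocounts, filters, scalings and fits, a replicate block, each library left out, and, added after seeing the data, triple mutant 1 and control 1 left out together.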

Additional observations from a re-analysis of the deposited data

Results flagged for a closer look

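Among 270 gene-and-group values of 135 genes, 26 had 1 library far from the other 3. The cutoff gives about 5% by chance for normal values, which is no measure here. Several genes were at 0 in 3 libraries, and some were chosen by their spread. The value given for each of the 26 is the gap of that library to its nearest neighbour. It is a share of the whole range of the 4, on log2(RPKM + 1). Triple mutant 4 was the library apart in 8. It was high for Ly6d, Smim5, Cd160 and Crip2, each with a share of 1, since the other 3 were listed at 0. It was also high for Havcr2, with 0.982, and Egr1, with 0.968, and low for Akr1b7, with 0.85, and Igtp, with 0.921. In the other triple mutants, Ccr9 was high in triple mutant 2, with a share of 1, Myct1 low in triple mutant 3, with 0.837, Kit high in triple mutant 3, with 0.941, and Spry2 low in triple mutant 1, with 0.905.

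In the controls, Plxdc2 was high in control 1, with 0.946, and Rgs14 with a share of 1 at 0.0313 RPKM. Gimap4, Actr6 and Rnase4 were low in control 1, with 0.908, 0.864 and 0.869. Control 2 was high for Clec10a, with a share of 1, Apol9a, with 0.958, Esam, with 0.956, and Csgalnact1, with 0.836. Control 3 was high for Isg20, with 0.921, and Spic, with 0.989, and low for Nup107, with 0.831. Control 4 was high for Procr, with 0.882, and for Azin1, with 0.841, where it had 54.2 RPKM against 51.8 to 52.2 in the others.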

How the results depend on the processing

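Against control, 160 genes were called. No filter on low values gave 91, a fold threshold of 2 gave 23, voom gave 27, leaving out 1 library gave 94 to 187, and leaving out triple mutant 1 and control 1 together, chosen after seeing the data, gave 83. The cause was not tested. The remaining settings gave 116 to 235. Against the double mutant 0 were called. A pseudocount of 5 gave 3, no filter 1, a filter at 5 RPKM 1, equal sums 2, equal medians 1, quantile normalization 5, array weights 2, and the 2 groups alone 1. Leaving out 1 library gave 0 to 6, with 6 without triple mutant 3. The log2 fold change of Rag1 reversed to −0.02 without control 1 and −0.20 without triple mutant 2, within a range of −0.20 to 0.58, and its difference in mean RPKM to −0.219 without triple mutant 2, within a range of −0.219 to 1.22. The 89 named genes that passed kept their call in 1506 of 2037 alternative values, lost it in 531 and reversed in 0. With the replicate block 116 genes were called, 111 of them among the 160, and 0 against the double mutant. Same-numbered libraries did not deviate together (r of −0.15, −0.04, −0.09 and −0.03), and none correlated best with its own number. So few libraries a group cannot show whether the numbers pair the libraries. RPKM below about 0.1 rests on a few reads.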
